A study of Homo sapiens with 26 samples.

Results

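Genes that set the volume of a cell were examined in clones of human cancer cells of differing size: the LRRC8 channel subunits LRRC8A, LRRC8B, LRRC8C, LRRC8D and LRRC8E, the ion cotransporter SLC12A2, the kinase WNK1 and the water and glycerol channel AQP3. They were taken by gene symbol, and all 8 had a row among the 58735 genes of the expression table. The test across genes covered the 14835 genes with at least 1 FPKM in 3 or more of the 26 libraries. FPKM is the number of fragments per kb of gene, scaled to the size of the library. LRRC8E reached 1 FPKM in 0 libraries and was not tested, so tests cover 7 of the 8 genes.

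Messenger RNA was sequenced from HCT116 and DLD1, established colorectal cancer lines, and from CAL51, an established triple-negative breast cancer line. The study blocked cell division for 20 hr to obtain tetraploid (4N) cells, using the myosin blocker blebbistatin at 75 µM for HCT116 and CAL51 and the actin inhibitor dihydrocytochalasin at 1.5 µg/mL for DLD1. After 48 hr of recovery it grew single cells into clones, and it classed 4N clones as large or small by cell and nuclear size. The libraries came from 3 large 4N clones, 3 small 4N clones, 2 clones with a 2N genome and 1 parental culture of HCT116, and from 4 large, 3 small, 2 2N and 1 parental of DLD1. CAL51 gave 3 large, 1 small, 2 2N and 1 parental. The replicates of a class were separate clones of 1 line, and p values reflect how far such clones differ from each other. That spread was estimated once per gene over all 3 lines together. Intervals and p values given for 1 line therefore also carry the spread among clones of the other lines. The labels do not say whether the 2N clones had passed through the division block, and tests with the 1 small clone of CAL51 take its spread from the other groups.

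Cells that swell release chloride, organic anions and osmolytes through the volume-regulated anion channel, and water follows. That channel is a hexamer in which the obligatory subunit LRRC8A joins LRRC8B, LRRC8C, LRRC8D or LRRC8E, and the partner affects which solutes pass. Cells that shrink take up sodium, potassium and chloride through the cotransporter NKCC1, the product of SLC12A2, which is switched on by WNK kinases, chloride-sensitive enzymes that act through the kinases SPAK and OSR1. AQP3 carries water and glycerol across the plasma membrane and is prominent in epithelia such as the colon lining.

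The libraries held 23.5 M to 44.5 M reads assigned to genes, and 1 read in a gene of 1 kb was worth 0.0246 to 0.0400 FPKM. Mitochondrial genes took 2.42% to 10.1% of reads. All 5 epithelial markers averaged at least 1 FPKM in each line. Of 5 colon epithelial markers, only CDX2 did in HCT116, only CDX2 and VIL1 did in DLD1, and none did in CAL51. In CAL51, 4 of 4 mesenchymal markers and 3 of 4 fibroblast collagen and matrix markers, all but DCN, averaged at least 1 FPKM. Some varied widely between CAL51 libraries, with FN1 at 0.126 to 169 FPKM and COL3A1 at 0.0055 to 29.9 FPKM. HCT116 had 1 marker of each list at that mean, FN1 and COL1A1. Epithelial markers also varied widely between CAL51 libraries, with CDH1 at 0.193 to 11.1 FPKM and KRT8 at 32.5 to 1964 FPKM. The blood cell list and the endothelial list had 0 markers that averaged at least 1 FPKM in any line. Their highest library values were 3.24 FPKM for CDH5 and 1.02 FPKM for VWF in CAL51 and 1.53 FPKM for CD14 in DLD1. In CAL51, large clone 1 stood farthest from its line, with an SD over genes of its log2 difference from the mean of the other CAL51 libraries of 0.551, against 0.281 to 0.449 for the other CAL51 libraries. In HCT116, large clone 3 did, at 0.505 against 0.201 to 0.351. FPKM is a share of the library, so total RNA per cell was not measured, and less RNA per cell and fewer expressing cells cannot be told apart.

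LRRC8B, LRRC8C and LRRC8D follow each other on the plus strand of chromosome 1, at chr1:89524836-89597864, chr1:89633072-89769903 and chr1:89821014-89936611 of GRCh38. Their promoter windows are shown because these neighbours had unlike levels, as given with the channel subunits. Each sequence is RefSeq's (GRCh38.p14), ends before the annotated gene start, runs 5′ to 3′ and has GC boxes (GGGCGG on either strand) and an AP-1 match (TGANTCA on either strand) in capitals.
LRRC8B, chr1:89524579-89524828, plus strand: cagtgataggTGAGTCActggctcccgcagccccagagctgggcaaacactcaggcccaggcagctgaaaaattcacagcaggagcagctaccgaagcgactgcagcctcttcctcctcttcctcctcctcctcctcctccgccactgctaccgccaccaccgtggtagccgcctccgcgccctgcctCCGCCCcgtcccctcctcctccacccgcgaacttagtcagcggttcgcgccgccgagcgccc
LRRC8C, chr1:89632870-89633071, plus strand: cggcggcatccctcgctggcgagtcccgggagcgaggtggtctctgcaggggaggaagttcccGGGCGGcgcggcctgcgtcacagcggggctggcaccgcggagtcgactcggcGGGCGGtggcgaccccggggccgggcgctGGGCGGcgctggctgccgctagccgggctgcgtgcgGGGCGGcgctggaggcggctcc
LRRC8D, chr1:89820782-89821013, plus strand: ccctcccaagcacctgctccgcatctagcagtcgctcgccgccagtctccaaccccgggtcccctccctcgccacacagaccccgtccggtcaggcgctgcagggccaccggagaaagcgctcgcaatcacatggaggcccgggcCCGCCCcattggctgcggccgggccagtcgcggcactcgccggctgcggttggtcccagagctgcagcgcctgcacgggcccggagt

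RefSeq gives LRRC8D a further window, chr1:89821689-89821938 on the plus strand, which held 3 GC boxes and is not shown. The LRRC8C window held 4 GC boxes, the LRRC8D window shown 1 and the LRRC8B window 1, and the AP-1 letters occurred in that of LRRC8B. Of 35116 RefSeq windows of 300 bases, 45.0% held a GC box and 7.71% the AP-1 letters. The LRRC8C window of 300 bases had 43 CpG dinucleotides, which lies at the 95.8th percentile of all windows, against 28 in that of LRRC8B and 29 in that of LRRC8D shown, and the median window had 14. It also covers the annotated start of LRRC8C-DT, a noncoding transcript on the minus strand that starts at position 89632894 and overlaps LRRC8B. These matches describe letters, and nothing was measured at the promoters.

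Of the 7 tested genes, 0 passed the threshold between large and small 4N clones, where 0.398% to 1.52% of all tested genes did. Between cell lines 2 to 5 of the 7 passed, where 61.0% to 64.0% of all tested genes did. LRRC8D and LRRC8A were highest in CAL51, SLC12A2 was highest in DLD1, and AQP3 was lowest in CAL51. LRRC8C passed in no comparison of all libraries. Values per library are plotted by line and class.

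**Figure D1:**
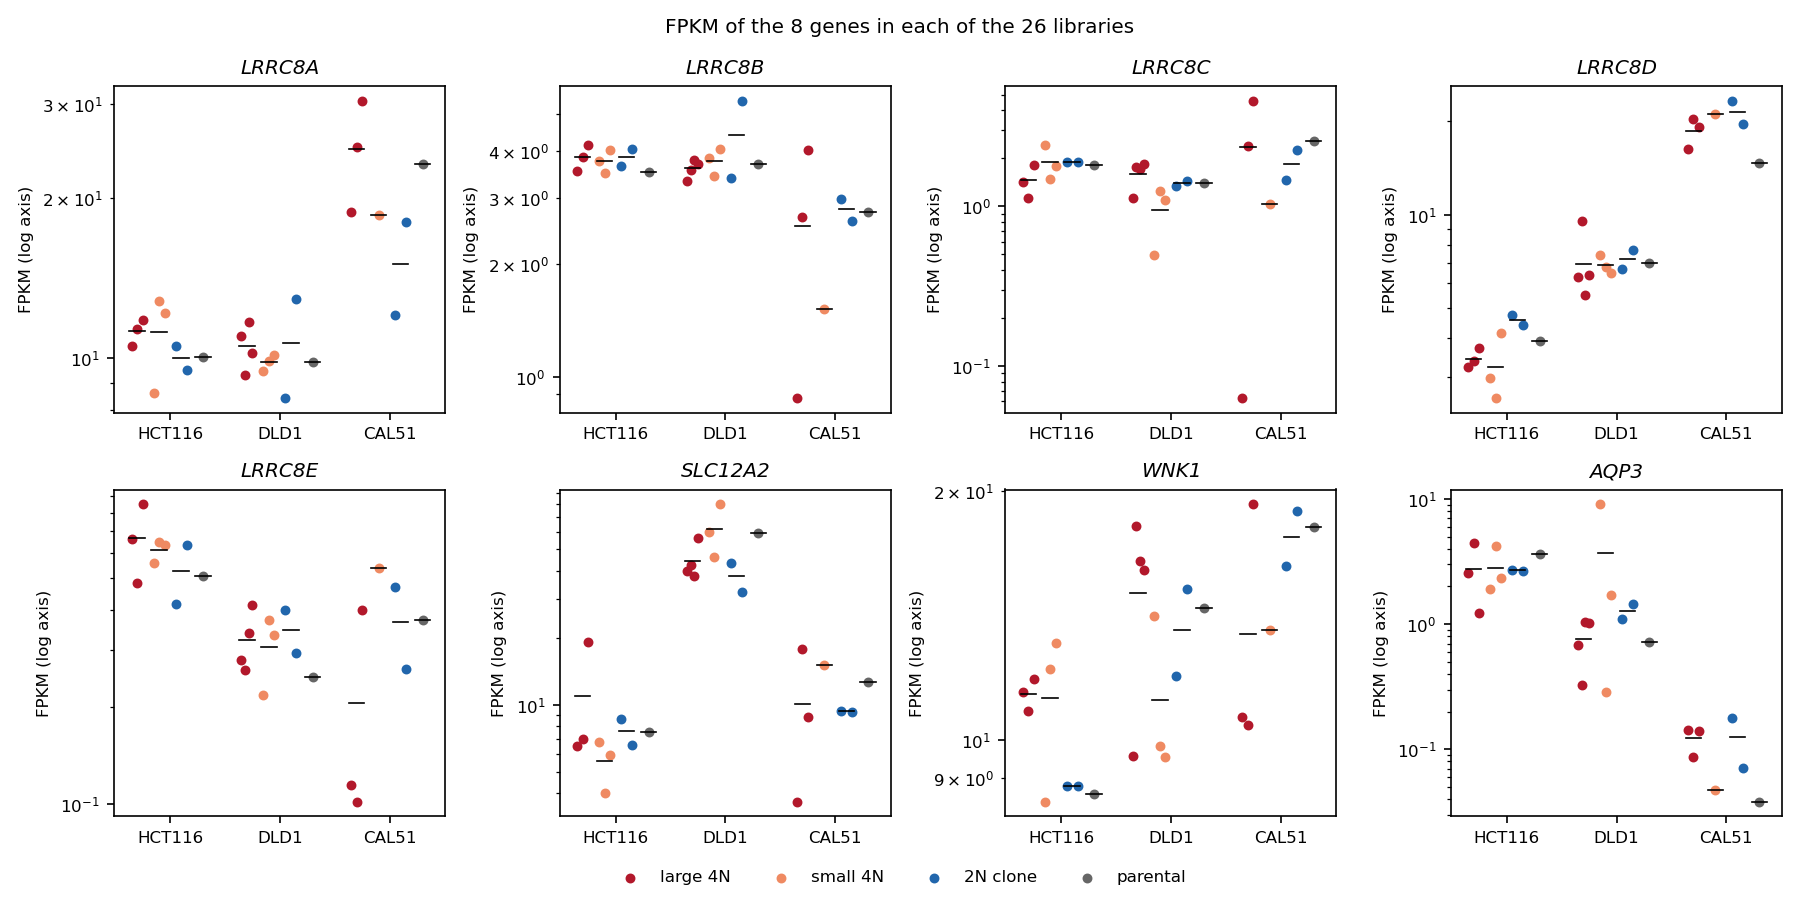
FPKM on log axes for each of the 8 genes, with 1 point per library, grouped by cell line and, within a line, by large 4N, small 4N, 2N and parental class; the short bars are class means. LRRC8D runs between 14.6 and 23.3 FPKM in CAL51 and below 10 FPKM in the colorectal lines, and 1 large CAL51 clone lies apart for LRRC8C at 0.063 FPKM.

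LRRC8A, the obligatory subunit (chr9:128882112-128918039), was expressed above 8 FPKM in all 26 libraries. In HCT116 it had 10.6, 11.3 and 11.8 FPKM in large 4N clones, 8.62, 12.8 and 12.1 FPKM in small 4N clones, 10.5 and 9.52 FPKM in 2N clones and 10.1 FPKM in the parental culture. In DLD1 it had 11.0, 9.29, 11.7 and 10.3 FPKM in large clones, 9.47, 9.89 and 10.1 FPKM in small clones, 8.43 and 12.9 FPKM in 2N clones and 9.83 FPKM in the parental culture. In CAL51 it had 18.8, 24.9 and 30.4 FPKM in large clones, 18.5 FPKM in the small clone, 12.1 and 18.0 FPKM in 2N clones and 23.1 FPKM in the parental culture. The classes overlapped in DLD1, and in HCT116 the large clones lay just above both 2N clones but not above all small clones. In CAL51 every large clone lay above the small clone and both 2N clones, but the parental culture lay inside the range of the large clones.

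LRRC8B, a partner subunit, stayed within 3.48 to 4.14 FPKM in HCT116 and within 3.32 to 5.42 FPKM in DLD1. In CAL51 it had 0.879, 2.66 and 4.01 FPKM in large clones, 1.52 FPKM in the small clone, 2.98 and 2.60 FPKM in 2N clones and 2.75 FPKM in the parental culture. The lowest and the highest CAL51 values were thus both large clones.

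LRRC8C, the next partner subunit on chromosome 1, had 1.43, 1.13 and 1.80 FPKM in large HCT116 clones, 2.43, 1.49 and 1.78 FPKM in small clones, 1.90 and 1.90 FPKM in 2N clones and 1.81 FPKM in the parental culture. In DLD1 it had 1.12, 1.75, 1.70 and 1.83 FPKM in large clones, 0.499, 1.25 and 1.10 FPKM in small clones, 1.35 and 1.44 FPKM in 2N clones and 1.41 FPKM in the parental culture. In CAL51 it had 0.063, 2.38 and 4.57 FPKM in large clones, 1.03 FPKM in the small clone, 1.46 and 2.24 FPKM in 2N clones and 2.55 FPKM in the parental culture. Large clones thus held both ends of the range of CAL51, which spanned 72.5-fold, against 2.15-fold in HCT116 and 3.67-fold in DLD1.

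LRRC8D, the partner subunit known for letting larger organic solutes and the drug cisplatin pass, was low in HCT116, with 3.22, 3.37 and 3.70 FPKM in large clones, 2.98, 2.56 and 4.16 FPKM in small clones, 4.76 and 4.40 FPKM in 2N clones and 3.90 FPKM in the parental culture. In DLD1 it had 6.29, 9.54, 5.49 and 6.36 FPKM in large clones, 7.41, 6.76 and 6.48 FPKM in small clones, 6.69 and 7.69 FPKM in 2N clones and 6.96 FPKM in the parental culture. In CAL51 it had 16.3, 20.3 and 19.1 FPKM in large clones, 21.1 FPKM in the small clone, 23.3 and 19.6 FPKM in 2N clones and 14.6 FPKM in the parental culture. The 3 lines did not overlap. Within HCT116, large clones and small clones each lay below the 2N clones.

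LRRC8E, the remaining partner subunit, was the least abundant. It lay between 0.417 and 0.848 FPKM in HCT116, between 0.218 and 0.412 FPKM in DLD1 and between 0.101 and 0.537 FPKM in CAL51. In CAL51 the 3 large clones had 0.114, 0.101 and 0.399 FPKM, the small clone 0.537 FPKM and the 2N clones 0.469 and 0.261 FPKM. The large clones thus reached below the 2N range but overlapped it.

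Since FPKM is scaled by gene length, the 5 subunits can be set against each other as shares of their summed FPKM. LRRC8A made up a median of 53.0% of that sum in HCT116, 45.5% in DLD1 and 49.5% in CAL51. LRRC8D made up 45.1% in CAL51, against 30.2% in DLD1 and 16.7% in HCT116. LRRC8B had a median share of 6.08% in CAL51, against 16.5% in DLD1 and 18.2% in HCT116. The mix in CAL51 was thus mainly LRRC8A and LRRC8D messages, while HCT116 held LRRC8B and LRRC8D at similar shares. The median summed level was 42.8 FPKM in CAL51, 22.1 FPKM in DLD1 and 20.5 FPKM in HCT116. These are shares of mRNA, and subunit proteins were not measured.

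**Figure D2:**
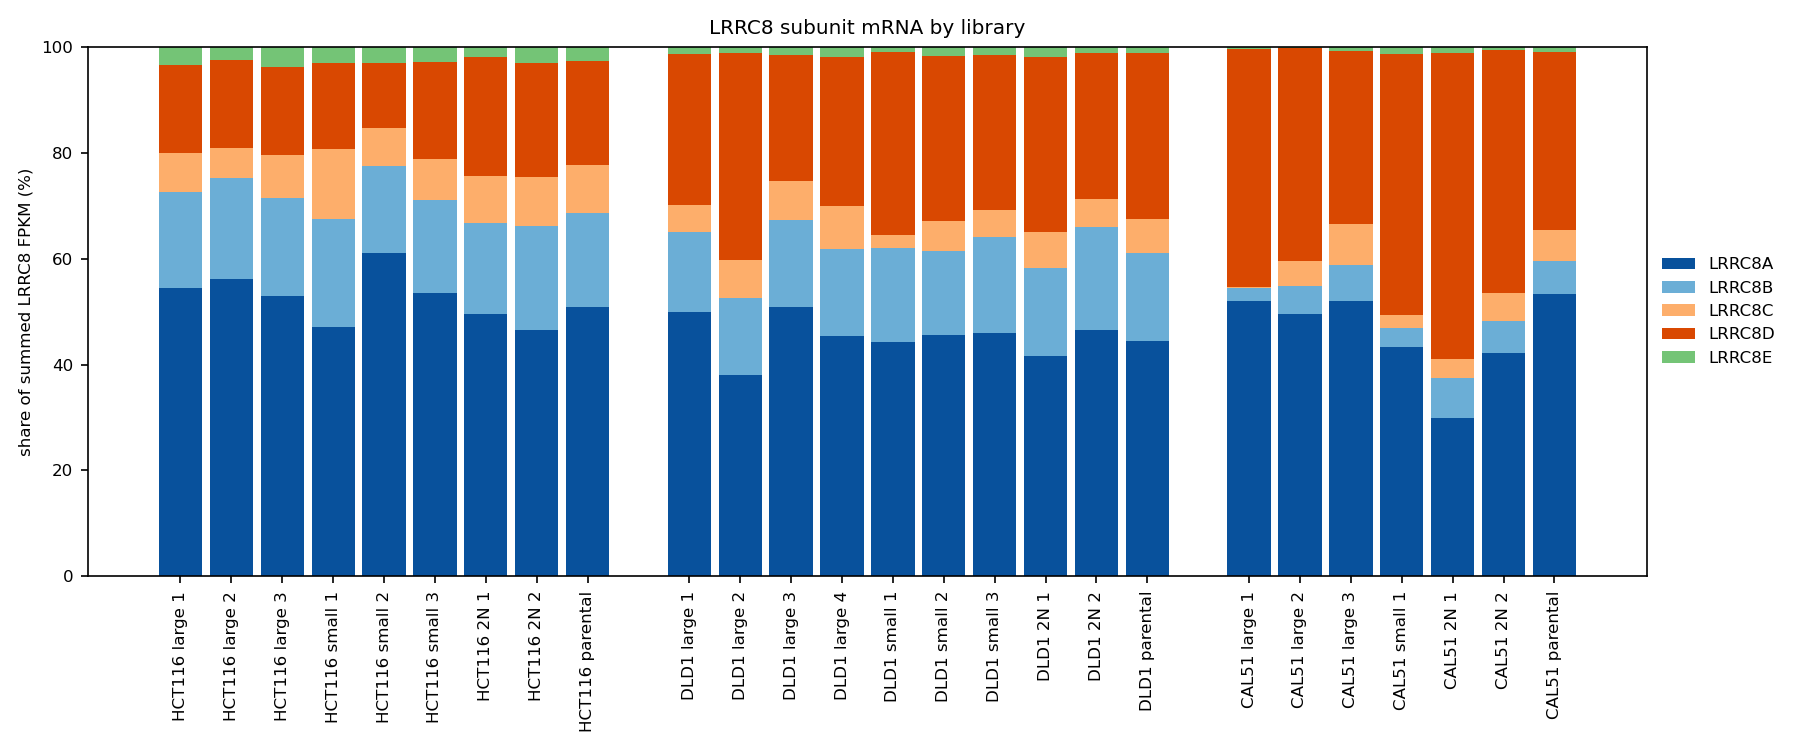
Share of each LRRC8 subunit in the summed LRRC8 FPKM (percent, stacked bars from 0 to 100), 1 bar per library, large 4N clones first within each line. LRRC8D takes a median of 45.1% in CAL51, 30.2% in DLD1 and 16.7% in HCT116, and LRRC8C all but disappears in CAL51 large clone 1.

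SLC12A2, which encodes NKCC1 (chr5:128083766-128189688), had 6.54, 7.01 and 19.1 FPKM in large HCT116 clones, 6.79, 4.01 and 5.93 FPKM in small clones, 8.61 and 6.57 FPKM in 2N clones and 7.50 FPKM in the parental culture. In DLD1 it had 40.2, 42.6, 38.0 and 56.1 FPKM in large clones, 60.1, 46.2 and 79.8 FPKM in small clones, 43.6 and 32.3 FPKM in 2N clones and 59.5 FPKM in the parental culture. In CAL51 it had 3.66, 17.9 and 8.79 FPKM in large clones, 15.1 FPKM in the small clone, 9.38 and 9.26 FPKM in 2N clones and 12.6 FPKM in the parental culture. Every DLD1 library lay above every library of the other lines. Large clone 3 held the high HCT116 value, and it is also the HCT116 library that stood farthest from its line.

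WNK1, the kinase upstream of SPAK and OSR1 (chr12:752593-911452), lay between 8.43 and 19.2 FPKM in all libraries. In HCT116 it had 11.4, 10.9 and 11.8 FPKM in large clones, 8.43, 12.2 and 13.1 FPKM in small clones, 8.79 and 8.79 FPKM in 2N clones and 8.62 FPKM in the parental culture. In DLD1 it had 9.58, 18.2, 16.4 and 16.0 FPKM in large clones, 14.1, 9.83 and 9.54 FPKM in small clones, 11.9 and 15.2 FPKM in 2N clones and 14.4 FPKM in the parental culture. In CAL51 it had 10.7, 10.4 and 19.2 FPKM in large clones, 13.6 FPKM in the small clone, 16.2 and 18.9 FPKM in 2N clones and 18.1 FPKM in the parental culture. The 3 large HCT116 clones lay above the 2N clones, and the other classes overlapped except that the small CAL51 clone lay below its 2N clones.

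AQP3 (chr9:33441154-33447633, minus strand) had 2.57, 4.46 and 1.22 FPKM in large HCT116 clones, 1.90, 4.24 and 2.35 FPKM in small clones, 2.73 and 2.66 FPKM in 2N clones and 3.63 FPKM in the parental culture. In DLD1 it had 0.677, 0.326, 1.03 and 1.02 FPKM in large clones, 9.05, 0.288 and 1.72 FPKM in small clones, 1.11 and 1.44 FPKM in 2N clones and 0.718 FPKM in the parental culture. In CAL51 it lay between 0.0383 and 0.179 FPKM. The small DLD1 clones thus held both the highest and the lowest value of their line, and the highest was a single clone. CAL51, where no colon epithelial marker averaged 1 FPKM, had the least AQP3. HCT116, where only CDX2 did, had a median of 2.66 FPKM. DLD1, where CDX2 and VIL1 did, had a median of 1.03 FPKM. AQP3 thus did not follow the number of these markers across the 3 lines, and the part of cell type was not tested.

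Between lines, differences were averaged over the 2N, small and large classes and given as log2(FPKM + 1), a scale that understates the change of low genes. In HCT116 against DLD1, 2 of 7 genes passed limma's test at an adjusted p under 0.05, where 63.7% of all 14835 genes did. SLC12A2 was lower in HCT116 by a log2 difference of -2.50 ± 0.25 (SE, limma adjusted p = 7.03e-08), and LRRC8D was lower by -0.76 ± 0.10 (adjusted p = 2.95e-06). AQP3 had a log2 difference of 0.63 ± 0.30 (limma adjusted p = 0.0694), and without DLD1 small clone 1, the clone with 9.05 FPKM, it was 0.90 ± 0.19 (limma adjusted p = 0.000567). It also passed without HCT116 large clone 3 at 0.74 ± 0.30 (limma adjusted p = 0.0377) and with the parental library counted as 2N at 0.71 ± 0.26 (limma adjusted p = 0.0177). WNK1 missed the threshold at -0.30 ± 0.14 (limma adjusted p = 0.0788), and it passed without DLD1 large clone 1 at -0.36 ± 0.13 (limma adjusted p = 0.0207) and with the parental library counted as 2N at -0.31 ± 0.12 (limma adjusted p = 0.0292).

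In CAL51 against HCT116, 5 of 7 genes passed, where 64.0% of all genes did. LRRC8D was higher in CAL51 by 2.18 ± 0.12 (limma adjusted p = 1.26e-11) and LRRC8A by 0.75 ± 0.13 (limma adjusted p = 6.26e-05). LRRC8B was lower in CAL51 by -0.61 ± 0.16 (limma adjusted p = 0.00327) and AQP3 by -1.73 ± 0.34 (limma adjusted p = 0.000221). WNK1 was higher by 0.46 ± 0.17 (limma adjusted p = 0.0232), a call that was lost without CAL51 2N clone 2 (adjusted p = 0.0568). SLC12A2 had a difference of 0.47 ± 0.28 (limma adjusted p = 0.153), which passed without HCT116 large clone 3 (0.63, adjusted p = 0.0381) or without CAL51 large clone 1 (0.65, adjusted p = 0.0250).

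In CAL51 against DLD1, again 5 of 7 genes passed, where 61.0% of all genes did. LRRC8D (1.42 ± 0.11) and LRRC8A (0.81 ± 0.13) were higher in CAL51, with limma adjusted p values of 4.57e-09 and 2.67e-05. SLC12A2 was lower by -2.02 ± 0.28 (limma adjusted p = 5.34e-06), AQP3 by -1.10 ± 0.34 (limma adjusted p = 0.00872) and LRRC8B by -0.63 ± 0.16 (limma adjusted p = 0.00251). LRRC8C differed by 0.13 ± 0.26 (limma adjusted p = 0.692) with CAL51 large clone 1 and by 0.36 ± 0.14 (limma adjusted p = 0.0390) without it. With 61.0% to 64.0% of all genes passing between lines, 5 of 7 is near the background and 2 of 7 lies below it. Each line enters more than 1 of these comparisons, which are therefore not independent.

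**Figure D3:**
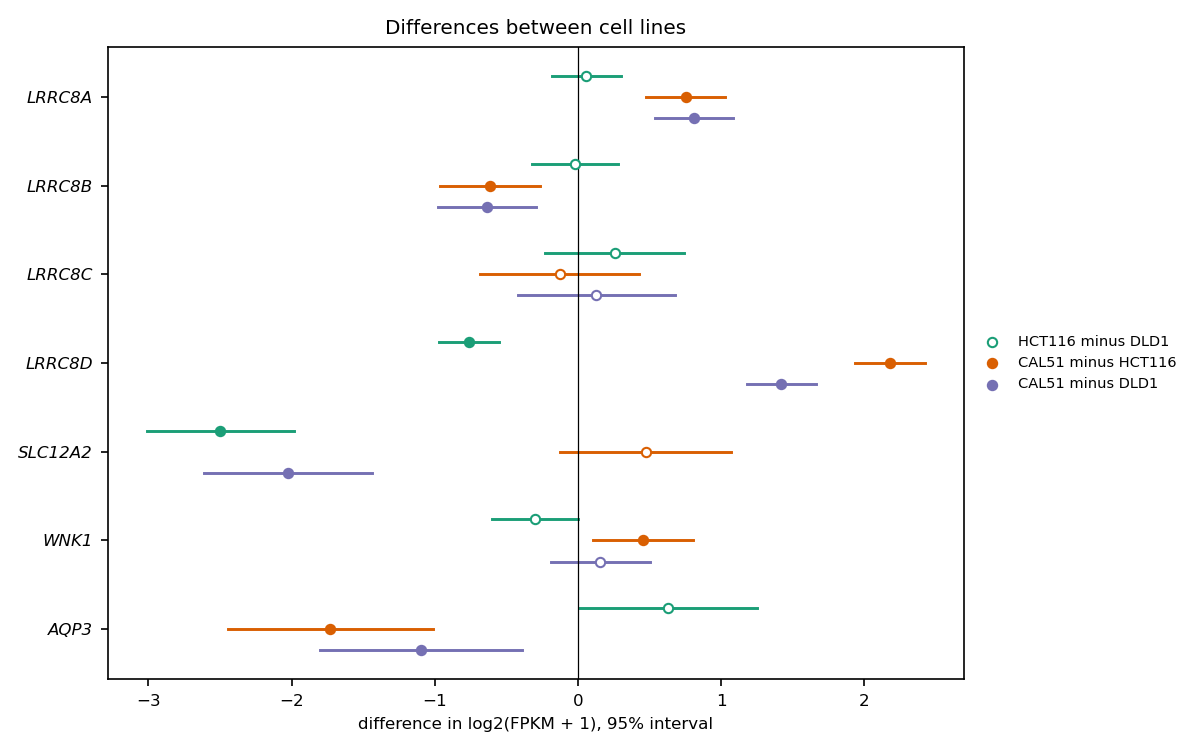
Differences between cell lines in log2(FPKM + 1) for the 7 tested genes, with 95% intervals from limma; filled points passed an adjusted p under 0.05. LRRC8D is filled in all 3 comparisons, LRRC8C in none, and SLC12A2 is filled in both comparisons with DLD1.

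The study set large against small 4N clones to find differences of expression that go with cell size at the same ploidy. None of the 7 genes passed limma's adjusted threshold in HCT116, where 0.445% of all genes did, in DLD1, where 0.472% did, in CAL51, where 1.52% did, or in the mean of the 3 lines, where 0.398% did. With all clones in the fit, the count at an unadjusted p under 0.05 was also 0 in each of these 4 comparisons. Of all genes, 15.4%, 6.65%, 12.4% and 9.54% had such a p in the same order. Limma voom on the recovered reads called 0 of the 7. With so few genes called in all, a count of 0 among 7 is near the background.

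In the mean of the lines, LRRC8A differed between large and small clones by a log2 of 0.16 ± 0.12, with a 95% interval of -0.10 to 0.42. LRRC8D differed by -0.039 ± 0.11, with an interval of -0.27 to 0.19, the narrowest of the 7. Those of WNK1 (0.12 ± 0.15) and LRRC8B (0.11 ± 0.15) were also small. Wider ones were those of LRRC8C, 0.20 ± 0.25, SLC12A2, -0.16 ± 0.26 (interval -0.72 to 0.39), and AQP3, -0.30 ± 0.32 (interval -0.96 to 0.37). With 1 clone left out, LRRC8C ranged from 0.031 to 0.43 and LRRC8B from 0.011 to 0.25 in this mean. The upper values were those without CAL51 large clone 1, where the SE was 0.13 for LRRC8C and 0.094 for LRRC8B. Neither gene passed the adjusted threshold in any of these fits.

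SLC12A2 had opposite signs in HCT116 (0.72 ± 0.40), DLD1 (-0.46 ± 0.38) and CAL51 (-0.76 ± 0.57), with limma adjusted p values of 0.410, 1.00 and 0.672. The HCT116 value turned on large clone 3, whose 19.1 FPKM stood against 6.54 and 7.01 FPKM in the other large clones, and it was 0.27 without that clone. The CAL51 value ranged from -1.25 without large clone 2 to -0.24 without large clone 1. The difference of these differences was 1.18 ± 0.55 for HCT116 minus DLD1 (limma adjusted p = 0.543), where 0.155% of all genes passed. For CAL51 minus HCT116 it was -1.48 ± 0.70 (limma adjusted p = 0.273), where 1.54% of all genes passed. For CAL51 minus DLD1, 0 of 7 genes passed, and 0.667% of all genes did. In these 3 comparisons limma called 0 of the 7 genes, as did voom, and SLC12A2 alone had an unadjusted p under 0.05, in the first 2, where 9.13% and 17.9% of all genes did.

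AQP3 in DLD1 differed by -0.92 ± 0.45 between large and small clones (limma adjusted p = 0.791), and the 9.05 FPKM of small clone 1 was the highest value of either class. With 1 clone left out the difference ranged from -1.59 without small clone 2 to -0.11 without small clone 1. WNK1 in DLD1 differed by 0.38 ± 0.22 (limma adjusted p = 0.930) and LRRC8C by 0.43 ± 0.35 (limma adjusted p = 1.00). In HCT116 the differences of the genes other than SLC12A2 lay between -0.24 ± 0.38 for LRRC8C and 0.083 ± 0.16 for LRRC8D.

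The ranges of large and small clones overlapped for all 8 genes in HCT116, where 14.3% of all tested genes did not overlap, and for all 8 in DLD1, where 11.5% did not. In CAL51 4 of 8 did not overlap the single small clone, LRRC8A and AQP3 above it and LRRC8D and LRRC8E below it, near the 47.1% of all tested genes. LRRC8E was not among those tested genes, and the CAL51 values of AQP3 and LRRC8E were all below 1 FPKM.

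**Figure D4:**
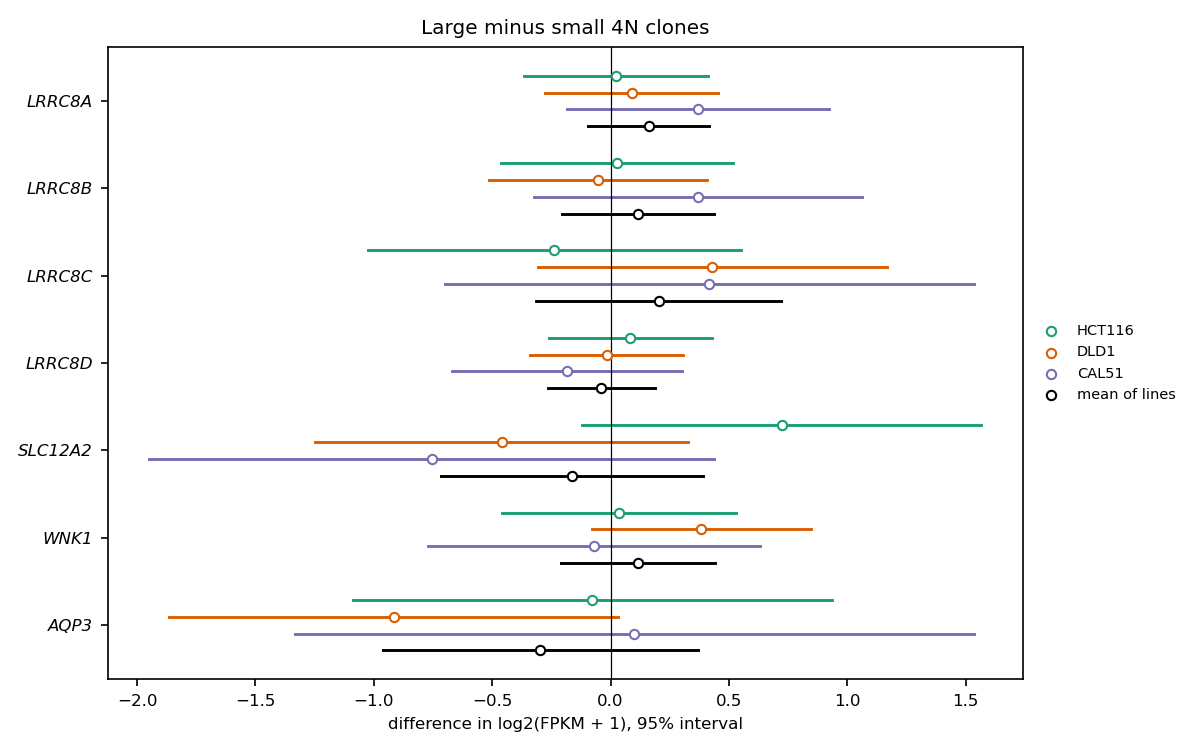
Large minus small 4N clones in log2(FPKM + 1) for the 7 tested genes, in each cell line and as the mean of the lines, with 95% intervals from limma. All points are open because no gene passed an adjusted p under 0.05, and SLC12A2 is above 0 in HCT116 and below 0 in DLD1 and CAL51.

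In CAL51 the size comparison of LRRC8B and LRRC8C depended on large clones 1 and 3. With all clones, LRRC8B differed by 0.37 ± 0.33 (limma adjusted p = 0.750) and LRRC8C by 0.42 ± 0.53 (limma adjusted p = 0.859). Without large clone 1, LRRC8B differed by 0.77 ± 0.21 (limma adjusted p = 0.0577) and LRRC8C by 1.09 ± 0.30 (limma adjusted p = 0.0592), both still short of the threshold. Without large clone 3, the clone with the highest values of both genes, LRRC8B differed by 0.059 ± 0.28 and LRRC8C by -0.10 ± 0.44 (limma adjusted p = 1.00 and 0.997). The CAL51 minus HCT116 difference of LRRC8C passed without large clone 1, at 1.33 ± 0.36 (limma adjusted p = 0.0476). It rests on 2 large CAL51 clones and 1 small one.

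The low LRRC8C value of large clone 1 was 30 reads, or 0.063 FPKM with an exact Poisson 95% interval of 0.0425 to 0.0900, which covers counting error only, against 349 to 1800 reads in the other CAL51 libraries. LRRC8C-DT, whose start lies in the LRRC8C promoter window shown above, had 0.0236 FPKM (2 reads) in this clone and 0.249 to 0.784 FPKM in the others. LRRC8B had 0.879 FPKM (293 reads) against 1.52 to 4.01 FPKM. LRRC8D, downstream of LRRC8C, had 16.3 FPKM and lay inside the 14.6 to 23.3 FPKM of the others. The libraries were made with dUTP for strand, but the strand setting of the counting is not given in the sources used here, so reads of LRRC8B and LRRC8C-DT in their overlap cannot be told apart.

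Genes farther along the chromosome were not uniformly low in the same clone. PKN2 had 6.81 FPKM against 12.4 to 15.8 FPKM, ZNF326 3.64 against 5.71 to 8.46 FPKM and ZNF644 3.71 against 6.22 to 7.82 FPKM. RBMXL1 was also below the others, at 2.02 against 2.54 to 3.11 FPKM. GTF2B was higher, at 8.60 against 6.42 to 7.37 FPKM, and KYAT3 and GBP1 lay inside the range of the others. These flanking genes were chosen after their values were seen. Neighbours were the 27 genes within 5 Mb of LRRC8C that averaged at least 5 FPKM in CAL51. In log2(FPKM + 1), their median difference of this clone from the mean of the 2N and parental libraries was -0.195. It was -1.52 for LRRC8C and -1.01 for LRRC8B, on a scale that understates the change of low genes. Without the added 1, the log2 ratio of this clone to the median of the other CAL51 libraries was -5.19 for LRRC8C and -1.62 for LRRC8B. DNA copy number and methylation were not analysed here.

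The same neighbour median, in log2(FPKM + 1), was taken around the other 2 genes with a clone far from its line. In HCT116 large clone 3 it was 0.372 over 13 genes around SLC12A2, against 1.24 for SLC12A2 itself, and the other 5 4N clones of HCT116 had neighbour medians of -0.115 to 0.123. In DLD1 small clone 1 it was -0.441 over 15 genes around SLC12A2, while SLC12A2 itself differed by 0.447. Around AQP3 in that clone it was -0.021 over 47 genes, against 2.28 for AQP3. For SLC12A2, the neighbour median was -0.166 over 17 genes in CAL51 large clone 1, against -1.28 for the gene itself. In DLD1 small clone 3 it was 0.080, against 0.851 for SLC12A2. In the small CAL51 clone it was -0.105, against 0.506 for SLC12A2. The neighbours of SLC12A2 thus lay on its side in some clones and on the other side in others, and their part in its level was not tested.

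**Figure D5:**
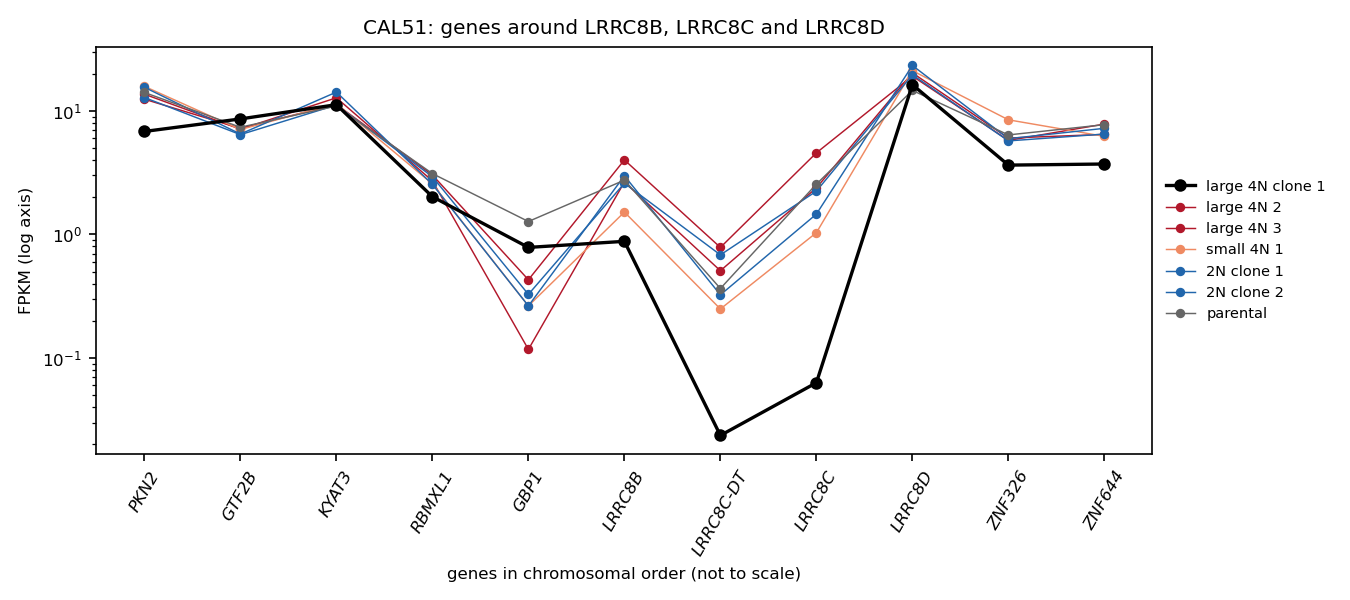
FPKM on a log axis of genes around LRRC8B, LRRC8C and LRRC8D in the 7 CAL51 libraries, in chromosomal order and not to scale; the thick black line is large 4N clone 1. That clone falls to 0.063 FPKM for LRRC8C and 0.0236 FPKM for LRRC8C-DT and returns to 16.3 FPKM for LRRC8D, inside the range of the others.

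Against the 2N clones, 0 of 7 genes passed limma's threshold in any of 6 comparisons, and voom called 0. The large and small clones of a line share the same 2N clones, so these comparisons are not independent. All genes passed at 0.917% for large and 0.0270% for small clones of HCT116, at 0.00% and 0.337% in DLD1 and at 0.465% and 0.148% in CAL51. At an unadjusted p under 0.05 there was 1 gene in each of 2 comparisons and 0 in the other 4. LRRC8D differed by -0.42 ± 0.18 between small and 2N HCT116 clones, where 4.55% of all genes had such a p. LRRC8A differed by 0.68 ± 0.21 between large and 2N CAL51 clones (limma adjusted p = 0.256), where 8.16% of all genes had such a p, and by 0.85 ± 0.21 without large clone 1 (limma adjusted p = 0.0582).

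Large HCT116 clones did not overlap the 2N clones for 4 of 8 genes, LRRC8A and WNK1 above and LRRC8C and LRRC8D below, where 33.2% of all tested genes did not overlap. Small HCT116 clones did not for LRRC8D alone, where 22.9% did not. In DLD1 large clones lay below the 2N clones for AQP3 (background 14.7%), and small clones lay above them for SLC12A2 and below them for LRRC8C (background 28.9%). In CAL51 large clones lay above for LRRC8A (background 16.0%), and the single small clone lay outside the 2N range for 7 of 8 genes (background 66.3%). The parental culture lay inside the 4N range for AQP3 and SLC12A2 in DLD1, LRRC8A in CAL51 and LRRC8D in small HCT116 clones. It lay outside for LRRC8C in DLD1 and for the 4 genes of large HCT116 clones. The 8 genes include LRRC8E, which was not among the tested genes of the background.

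Other genes of cell volume control, in lists compiled for this purpose, were read in the same fits. Of the 6 tested relatives of SLC12A2, the 12 kinases and regulators around WNK1, the 2 other aquaporins, the 12 sodium pump and pH exchanger genes and the 9 genes of NFAT5 and osmolyte handling, 0 passed between large and small clones in any line or in the mean of the lines, by limma or by voom. At an unadjusted p under 0.05 these lists had, in the same order, 0, 0, 0, 1 and 0 genes in HCT116, 1, 0, 0, 2 and 1 in DLD1, 0, 2, 0, 1 and 0 in CAL51 and 0, 2, 0, 2 and 0 in the mean of the lines. Of all tested genes, 15.4%, 6.65%, 12.4% and 9.54% had such a p in HCT116, DLD1, CAL51 and the mean. Their median log2 differences in that mean were 0.063, -0.029, -0.173, -0.031 and 0.031, beside -0.001 over all tested genes. In the lists of 15 other anion channels and of 11 potassium and mechanosensitive channels, 0 passed limma or voom in HCT116 or in the mean of the lines. The anion channel list had 3 genes at an unadjusted p under 0.05 in HCT116 and 2 in that mean, and the other list had 2 and 2.

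CFTR, the chloride channel mutated in cystic fibrosis, was 1 of 15 anion channel genes past the threshold in DLD1, where 0.472% of all tested genes passed. It had 0.0518, 0.566, 0.306 and 0.422 FPKM in large clones, 1.75, 1.56 and 5.55 FPKM in small clones, 1.24 and 1.09 FPKM in 2N clones and 2.90 FPKM in the parental culture. Every large clone lay below every other DLD1 library. The log2 difference of large from small clones was -1.44 ± 0.22 (limma adjusted p = 0.00367), and it was not past the threshold when DLD1 was fitted alone (limma adjusted p = 0.204). CFTR did not exceed 0.238 FPKM in HCT116 or CAL51. It met the filter of the test only through the small, 2N and parental DLD1 libraries, 6 in all, where it was higher. Its pooled spread also includes the HCT116 and CAL51 libraries, which lie near the floor. With DLD1 fitted alone the SE was 0.33.

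In CAL51, 1 of 15 anion channel genes and 1 of 11 potassium and mechanosensitive channel genes passed, where 1.52% of all tested genes did. TTYH3, a member of the tweety family of membrane proteins, had 84.7, 79.6 and 77.2 FPKM in large clones, 27.8 FPKM in the small clone, 31.7 and 63.4 FPKM in 2N clones and 54.3 FPKM in the parental culture. Its log2 difference of large from small clones was 1.50 ± 0.32 (limma adjusted p = 0.0245). KCNE3, an accessory subunit of potassium channels, had 0.0067, 0 and 0 FPKM in large clones, 1.24 FPKM in the small clone, 0 and 0.170 FPKM in 2N clones and 0.130 FPKM in the parental culture. Its difference was -1.16 ± 0.23 (limma adjusted p = 0.0144). These CAL51 values lie near the floor. KCNE3 met the filter of the test through DLD1, at 9.82 to 19.5 FPKM in all 10 libraries. Its pooled spread also includes the 9 HCT116 libraries, all at 0 FPKM. Both rest on 1 small clone, and neither passed when CAL51 was fitted alone (limma adjusted p = 0.851 for TTYH3 and 0.125 for KCNE3).

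Between lines, 2 further genes tied to the members stood apart and were chosen after their values were seen. STK39, which encodes SPAK, the kinase between WNK1 and NKCC1, had a median of 43.4 FPKM in HCT116, 5.72 FPKM in DLD1 and 4.60 FPKM in CAL51. HCT116 had the least SLC12A2 by median, 6.79 FPKM against 44.9 FPKM in DLD1 and 9.38 FPKM in CAL51. KCNN4, a calcium-activated potassium channel, lay between 21.2 and 34.4 FPKM in HCT116 and did not exceed 0.307 FPKM in the other lines.

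The members varied mostly apart from each other within the lines. Over the 26 libraries, centred on the mean of each line, LRRC8B and LRRC8C had the highest Pearson correlation of any pair of members, r = 0.765, and r = 0.530 without CAL51 large clone 1. The genes most like each member in the same measure were OCIAD2 for LRRC8A (r = 0.758), NCKAP1 for LRRC8B (0.892), TMTC1 for LRRC8C (0.869), HIVEP3 for LRRC8D (0.801) and GTF3C4 for LRRC8E (0.817). They were API5 for SLC12A2 (0.876), GCH1 for WNK1 (0.708) and TNC for AQP3 (0.806). The second on each list was TLE4, SMARCAD1, FRZB, MACROD1, ABCF1, ZMYND11, INSR and EVX1 in the same order of members. Without CAL51 large clone 1 the values for NCKAP1 and TMTC1 were 0.768 and 0.730. These correlations share libraries, and in several of them 1 clone lies far from the others.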

How the data were processed

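The authors deposited FPKM for 58735 genes in 26 libraries. Per the submitters' processing notes, fastp, HISAT2 2.0.5, featureCounts 1.5.0-p3 and DESeq2 were used with GRCh38. Poly-A RNA libraries used dUTP, per the labels' protocols. The deposited gene length in base pairs, with FPKM, gave whole reads (100% within 0.01), hence depth. Genes with 1 FPKM in at least 3 libraries (14835) were fitted with limma 3.58.1 in R 4.3.3 on log2(FPKM + 1), with 12 line-by-class means, 14 residual degrees of freedom and a prior of 3.84. Contrasts were two-sided, with Benjamini-Hochberg adjustment over all 14835 genes and a threshold of 0.05. The procedure was tested on simulated data. Tables and figures used Python 3.11.15, pandas 2.3.3 and matplotlib 3.10.9.

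Members and lists were chosen with earlier results of these data known. List genes were named if past the threshold between large and small clones, up to 4 per list and contrast. Genes most like a member were the 2 protein-coding genes of mean FPKM 1 or more with the highest Pearson r. TMM normalization and a quasi-likelihood count test had been planned and were not run. Alternatives changed pseudocount (0.1), filter, scaling, reads with voom, line-wise fits, 2N grouping, replicate block, left-out clones and left-out lines.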

Additional observations from a re-analysis of the deposited data

Results flagged for a closer look

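TTYH3 was flagged because its difference between large and small 4N clones was itself different between lines in limma's test. The log2 difference was larger in CAL51 than in HCT116 by 2.05 and larger in CAL51 than in DLD1 by 1.80. KCNE3 was flagged for the same reason, with a difference of -1.16 for CAL51 minus HCT116, where all 9 HCT116 libraries were listed at 0. That value therefore only repeats the CAL51 difference of large from small clones. A gene without reads in HCT116 cannot show whether its size difference differs between these lines. Each of the flagged differences rests on the single small CAL51 clone. The TTYH3 difference from DLD1 missed the threshold with voom (limma voom adjusted p = 0.0814), with a pseudocount of 0.1 (limma adjusted p = 0.0543) and without DLD1 large clone 2 or 4 or any 1 small DLD1 clone (limma adjusted p = 0.0562 to 0.0734). That of KCNE3 missed it with median-ratio scaling (limma adjusted p = 0.0557) and without HCT116 large clone 1 or 3, any 1 small HCT116 clone or CAL51 large clone 2 or 3 (limma adjusted p = 0.0503 to 0.0951). The large DLD1 class alone had at least 4 libraries, so a single library apart from its class was looked for there and in no other class. For the 8 genes and the 3 list genes, 11 in all, 0 had such a library.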

How the results depend on the processing

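Counts of called members kept within 1.5 times of those reported under every alternative run, except as follows. HCT116 against DLD1 had 4 called members with the parental library counted as 2N, against 2. For the CAL51 minus HCT116 size difference the count ranged from 0 to 1 with 1 clone left out, and it was 1 without CAL51 large clone 1. The causes of the changes below were not tested.

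Sign changes concerned differences that had not passed the threshold. The labels' replicate numbers did not pair the clones, with correlations of deviations of 0.028, 0.16 and 0.16 in HCT116 and 0.00052, 0.085 and -0.056 in DLD1. A replicate block called 0 members too, and it turned large-minus-small differences to 0.011 for LRRC8D in DLD1, to -0.019, -0.14 and -0.62 for LRRC8A, LRRC8B and LRRC8C in CAL51, and to -0.060, -0.16 and -0.0012 for LRRC8B, LRRC8C and WNK1 in the mean of the lines. The block could not be fitted to differences between lines, since numbers are nested in lines. Voom turned LRRC8C to -0.42 for size in CAL51 and to -0.12 for CAL51 against DLD1. In the mean of the lines, leaving out CAL51 gave -0.013 for LRRC8B, 0.034 for LRRC8D and 0.13 for SLC12A2, and leaving out DLD1 gave -0.016 for WNK1 and 0.012 for AQP3.

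With 1 clone left out, size differences in HCT116 ranged from -0.14 to 0.12 for LRRC8A, from -0.017 to 0.074 for LRRC8B, from -0.033 to 0.23 for LRRC8D, from -0.14 to 0.15 for WNK1 and from -0.39 to 0.25 for AQP3. LRRC8D ranged from -0.16 to 0.071 in DLD1. In CAL51 LRRC8C ranged from -0.10 to 1.09 and WNK1 from -0.34 to 0.075. In the mean of the lines LRRC8D ranged from -0.087 to 0.012 and SLC12A2 from -0.33 to 0.0074. Between lines, LRRC8A ranged from -0.033 to 0.15 and LRRC8B from -0.11 to 0.072 in HCT116 against DLD1, and LRRC8C from -0.30 to 0.098 in CAL51 against HCT116 and from -0.043 to 0.36 in CAL51 against DLD1.

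The block also ended the calls of TTYH3 for size in CAL51 (1.31, limma adjusted p = 0.135), for CAL51 minus HCT116 (1.86, 0.070) and for CAL51 minus DLD1 (1.44, 0.190), and that of KCNE3 for CAL51 minus HCT116 (-1.21, 0.0706). With the block, counts of called list genes went to 1 for the cotransporters and for the aquaporins, to 0 for anion channels and to 2 for potassium channels in CAL51, and to 1 for potassium channels in DLD1. Other list counts of 0 became 1 for the WNK list in CAL51 with no filter or without large clone 1, for the sodium pump list in DLD1 with the parental library as 2N and in the mean without HCT116, for NFAT5 in DLD1 with a pseudocount of 0.1, for the anion and potassium lists in HCT116 without large clone 2, and for the potassium list in the mean with a pseudocount of 0.1, without HCT116 or without DLD1 large clone 2. The potassium count in CAL51 was 2 without large clone 3. The count of 1 became 0 for anion channels in DLD1 and for potassium channels in CAL51 with the added filter.

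AQP3 in HCT116 against DLD1 passed with a pseudocount of 0.1 (limma adjusted p = 0.0474). Alternatives of single members were run for all size and line differences, and for 2N and between-line size differences only where the unadjusted p was under 0.05, a limit set after the values were seen. The filter on a mean FPKM of 1 or more in each line was added after seeing the data, and it removed AQP3, CFTR and KCNE3 from the test. With this filter the TTYH3 difference for CAL51 minus DLD1 also missed the threshold. The TMM and quasi-likelihood alternatives were not run.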
